A study of Mus musculus with 10 samples.

Results

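The Th2 cytokine locus of the mouse was represented by 12 of the 61581 peaks of the deposited peak set. These are all peaks, weak ones included, whose deposited annotation names Kif3a (3 peaks), Il4 (3 peaks), Il13 (1 peak), Rad50 (2 peaks) or Il5 (3 peaks) as the gene with the nearest start site. The 5 genes, of 14287 genes with a peak, stand side by side on chromosome 11 (mm10), and their start sites span 153.4 kb. No other peak lay between the first and the last of the 12. Open chromatin was measured by ATAC-seq, in which the Tn5 transposase cuts and tags accessible DNA, in naive CD4 T cells (by surface markers that included CD3+, CD4+, CD25- and CD44 low or negative) sorted from spleen and lymph node. The KO group was 5 libraries from Satb1fl/fl x CD4-CreERT2wt/+ mice given tamoxifen, which activates the Cre recombinase that removes the floxed Satb1 segment in cells that express CD4. The WT group was 5 libraries from mice of that same genotype left without tamoxifen, so both groups carried the floxed alleles and the Cre, and an effect of tamoxifen itself and an effect of Satb1 loss cannot be told apart. Whether every library had its own donor animal is not in the labels, so a p-value measures the spread between libraries, which may be technical.

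Il4, Il13 and Il5 encode interleukins 4, 13 and 5, the cytokines by which T helper 2 (Th2) cells direct IgE production, mucus secretion and eosinophil growth. The genes are largely silent in naive T cells and are opened together when GATA3 and STAT6 act during Th2 differentiation. Rad50, a DNA repair gene that lies between Il13 and Il5, carries the locus control region of the cytokine genes in its 3′ part, and Kif3a, a kinesin motor gene, borders Il4 on the other side. The region 3′ of Il4 is known to hold both an enhancer and a silencer of that gene. SATB1, a nuclear protein that anchors AT-rich DNA, is known to fold this locus into loops in activated Th2 cells.

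The libraries held 673398 (Sample_2270_KO) to 2184717 (Sample_2272_KO) counts in peaks, with a median of 5 to 17 counts per peak and library. Libraries Sample_2268_KO and Sample_2270_KO differed by less than the sampling noise (chi-square per degree of freedom 0.974, p = 1), and so did Sample_2273_WT and Sample_2276_WT (0.991, p = 0.924). Each of these pairs was counted as 1 sample, by its mean, in every mean ± SD, which gives n = 4 a group. The edgeR fits used all 10 libraries as deposited. Sample_2277_WT came close to that noise against Sample_2276_WT (chi-square per degree of freedom 1.014, p = 0.0127) and Sample_2273_WT (1.022, p = 0.000371). It was kept apart, so n = 4 does not settle how many samples were independent. Satb1 itself, summed over its 26 peaks, stood at 437.2 ± 15.1 CPM in KO libraries and 385.8 ± 19.0 CPM in WT libraries (SD, n = 4 each; fold 1.14, edgeR adjusted p = 0.0245, called higher, with no overlap of the groups), where CPM is the count per 1000000 counts in tested peaks (for gene sums, in tested genes) after TMM scaling. None of its 16 tested peaks was called lower in KO, and because the labels do not give the floxed segment, these values do not check the group labels.

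In the deposited peak set, the cytokine genes had no peak at their start sites and their neighbours had. The start sites of Kif3a and Rad50, genes expressed in most tissues, each lay inside a peak. The nearest peak to the Il4 start site was 8.8 kb away, the nearest to that of Il13 was 6.5 kb away, and the nearest to that of Il5 was 13.3 kb away and was the Rad50 promoter peak. All 7 peaks named for a cytokine gene lay past the 3′ end of that gene. They were 2.6, 6.6 and 7.0 kb past Il4, 3.2 kb past Il13, and 10.6, 12 and 12.6 kb past Il5. A stretch of 78.6 kb between the Il13 peak and the Rad50 promoter, which includes almost the whole body of Rad50, held no peak of the set.

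The 250 bases before the start site are printed from RefSeq (GRCm38.p6) for Il4, Il13, Il5 and Kif3a, because a peak overlapped that of Kif3a and none overlapped those of the cytokine genes. Capitals mark each CG.
Il4 promoter, chr11:53618666-53618915, minus strand: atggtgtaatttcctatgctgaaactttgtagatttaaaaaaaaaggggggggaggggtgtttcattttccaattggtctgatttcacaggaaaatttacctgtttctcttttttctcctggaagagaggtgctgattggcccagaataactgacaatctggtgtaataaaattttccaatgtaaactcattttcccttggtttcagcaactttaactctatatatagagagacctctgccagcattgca
Il13 promoter, chr11:53634703-53634952, minus strand: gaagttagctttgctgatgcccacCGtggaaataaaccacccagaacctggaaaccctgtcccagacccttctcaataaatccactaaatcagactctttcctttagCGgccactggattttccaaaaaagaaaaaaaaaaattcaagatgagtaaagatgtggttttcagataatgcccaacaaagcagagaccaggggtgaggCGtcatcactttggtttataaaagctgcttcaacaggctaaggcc
Il5 promoter, chr11:53720544-53720793, plus strand: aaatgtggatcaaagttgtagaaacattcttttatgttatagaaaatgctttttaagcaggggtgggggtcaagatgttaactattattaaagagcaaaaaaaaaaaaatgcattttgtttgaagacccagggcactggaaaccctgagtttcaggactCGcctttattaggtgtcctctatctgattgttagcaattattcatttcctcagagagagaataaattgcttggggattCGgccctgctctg
Kif3a promoter, chr11:53567119-53567368, plus strand: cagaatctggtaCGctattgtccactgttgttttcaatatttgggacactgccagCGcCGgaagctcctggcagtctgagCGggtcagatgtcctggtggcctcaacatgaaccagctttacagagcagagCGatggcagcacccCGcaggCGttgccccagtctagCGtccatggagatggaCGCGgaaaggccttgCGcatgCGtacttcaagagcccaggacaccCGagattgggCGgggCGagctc

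The Il4 promoter held 0 CG, that of Il5 held 2, that of Il13 held 3 and that of Kif3a held 15. A and T made up 62.4% of the bases before Il4 and before Il5, 56.8% before Il13 and 41.2% before Kif3a. Among 32851 RefSeq promoters cut in the same way, 7.87% had as few CG as Il4, 29.0% had at most as many as Il5, 37.8% at most as many as Il13 and 74.6% at most as many as Kif3a. A peak of the set overlapped 3.23% of promoters with 0 to 2 CG, 18.7% of those with 3 to 9 and 75.4% of those with 10 or more. For this overlap the window also took in a short stretch past the start site, in which CG was not counted. The letters GGAAA, the core of the NFAT motif, stood 5 times before Il4, 4 times before Il13, 2 times before Il5 and 1 time before Kif3a on either strand, and 55.6% of all promoters held them at least once. A form of the STAT motif, TTC and GAA with any 4 bases between them, stood 1 time before Il4 and nowhere in the other 3 sequences (5.85% of all promoters). Forms with another spacing were not counted. The letters GATAA, 1 form of the motif of GATA factors, stood 1 time before Il13 alone (22.6%). Other forms of that motif, such as GATAG, were not counted, so a GATA site before the other genes is not excluded. The TATA box letters TATAAA also stood before Il13 alone, at 2 overlapping places on opposite strands (12.4%). Other forms of the box, such as the TATATA that the Il4 sequence holds, were not counted, so a TATA box before the other genes is not excluded. These matches describe letters in a window and do not show that a factor was bound.

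Il4 rose in KO and was the only one of the 5 genes that passed the test in either direction, though the differences in fold between the genes were not tested. The summed accessibility of its 3 peaks was 18.7, 14.9, 8.47, 16.4 and 11.7 CPM in the KO libraries Sample_2268_KO to Sample_2272_KO, against 6.59, 7.44, 3.78, 5.76 and 2.75 CPM in the WT libraries Sample_2273_WT to Sample_2277_WT. Every KO library lay above every WT library, which held for 2.1% of the tested genes. The mean was 14.16 ± 1.99 CPM in KO libraries and 5.036 ± 2.15 CPM in WT libraries (SD, n = 4 each). Il4 rose 2.78-fold (95% confidence interval 1.92 to 4.09), a log2 fold change of 1.47 ± 0.27 (SE), with an adjusted p of 0.00024 in the quasi-likelihood test of edgeR after Benjamini-Hochberg adjustment over 12489 genes. Of those genes, 1.65% were called higher in KO and 0.536% lower at an adjusted p under 0.05. A fold at least as large was fitted for 8 of the 12489 genes, Il4 included, which is 0.0641%.

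The rise of Il4 rests on few reads. Its peaks held 95 counts in KO and 38 in WT, and 4.32% of the tested genes had a total as small as these 133 counts, against a median of 872. DESeq2 gave the same log2 fold change of 1.47 with an adjusted p of 0.00913, and edgeR with the 2 library pairs each summed into 1 gave 1.48 with 0.000428. Leaving out each library in turn gave log2 fold changes of 1.32 to 1.68 and adjusted p-values of 0.000191 to 0.00304. In bulk libraries, more cells with an open site and a more open site in each cell cannot be told apart.

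**Figure D1:**
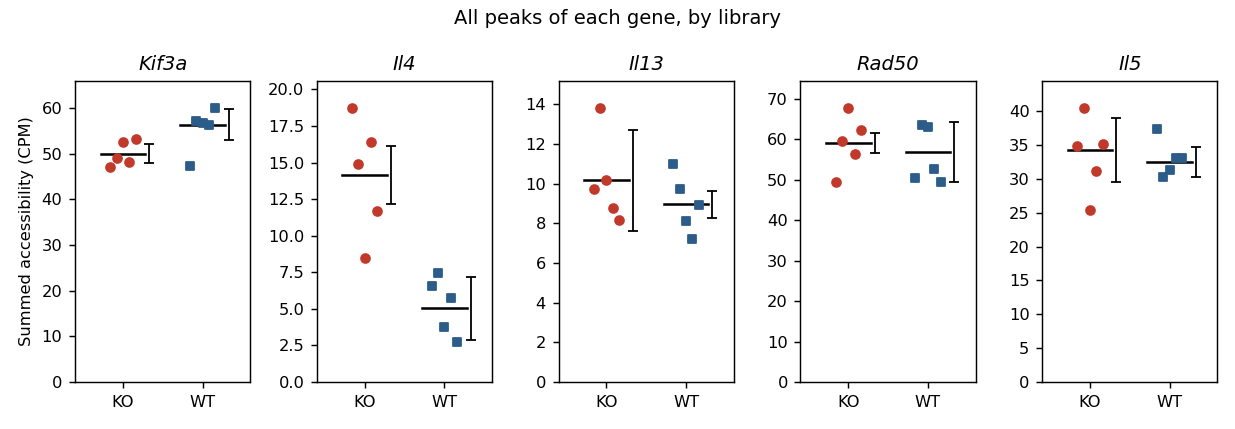
Summed accessibility in CPM (y axis, starting at 0 and scaled for each gene) of all peaks of Kif3a, Il4, Il13, Rad50 and Il5, with 5 KO libraries (red circles) left of 5 WT libraries (blue squares) in each panel. Horizontal lines are means and vertical bars are SD over n = 4 after each library pair within sampling noise was averaged, and the groups are apart for Il4 (8.47 to 18.7 CPM in KO libraries, 2.75 to 7.44 CPM in WT libraries) and overlap for the other 4 genes.

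Each of the 3 Il4 peaks held more counts in KO than in WT. The Il4 peak at chr11:53605687-53605833, an intergenic site 6.6 kb past the 3′ end of Il4 and 1.4 kb past that of Kif3a, held 14, 8, 2, 13 and 8 counts in the KO libraries and 3, 6, 4, 2 and 3 counts in the WT libraries. In CPM these were 11.2, 8.34, 3.33, 6.91 and 3.99 in KO, against 3.26, 3.31, 2.09, 1.43 and 2.03 in WT. The lowest KO library, Sample_2270_KO, lay just above the highest WT library, Sample_2274_WT, so the groups did not overlap, though by a margin below the worth of 1 read. Groups with KO wholly above WT were found for 1 of the 12 peaks of the locus and for 2.18% of all peaks.

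The Il4 peak at chr11:53605364-53605473, its intergenic neighbour 1.1 kb past the 3′ end of Kif3a, held 3, 4, 2, 10 and 8 counts in the KO libraries and 3, 3, 2, 3 and 0 counts in the WT libraries. Its totals were 27 counts in KO and 11 in WT, and the groups overlapped because Sample_2268_KO (2.4 CPM) lay below Sample_2273_WT (3.26 CPM). The Il4 peak at chr11:53609784-53609843, annotated as downstream of Il4, held 6, 2, 1, 7 and 7 counts in the KO libraries and 0, 4, 1, 3 and 1 counts in the WT libraries. Its totals were 23 counts in KO and 9 in WT, and the groups overlapped. A count of 0 allows up to 2.93 counts per 1000000 in-peak counts in Sample_2273_WT and up to 1.84 in Sample_2277_WT, from counting error alone.

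**Figure D2:**
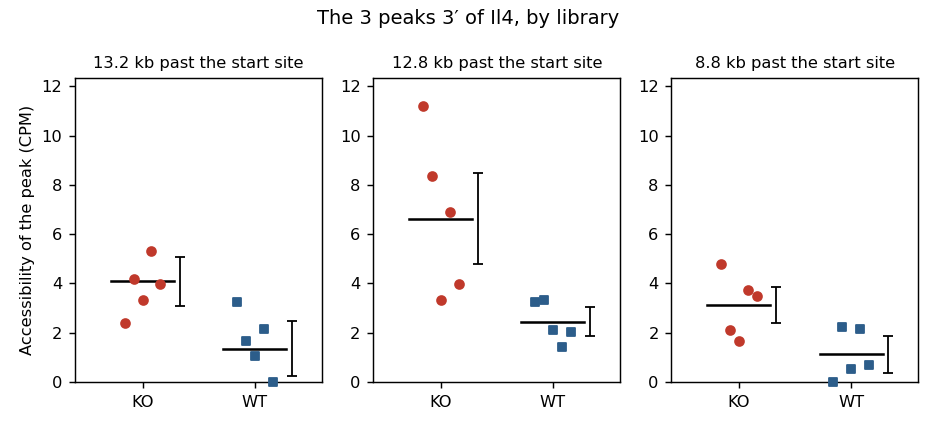
Accessibility in CPM (y axis, from 0, the same scale in each panel) of the 3 peaks of Il4, named by their distance from the Il4 start site, in 5 KO libraries (red circles, left) and 5 WT libraries (blue squares, right). Lines are means and bars SD over n = 4, and in the peak 12.8 kb past the start site all KO libraries (3.33 to 11.2 CPM) stand above all WT libraries (1.43 to 3.31 CPM).

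None of the 3 Il4 peaks had enough counts for the filter of the peak test. Fitted with no filter on low counts, over all 61581 peaks, they gave log2 fold changes of 1.36 (2.57-fold), 1.45 (2.73-fold) and 1.42 (2.68-fold) in order along the chromosome. The middle peak, at 53605687, was called higher in that fit (edgeR adjusted p = 0.0214), as were 1.99% of all peaks, and the others were not (adjusted p = 0.278 and 0.344). With no filter and 1 library left out, a combination added after the data were seen, its call ended without Sample_2268_KO (adjusted p = 0.202), Sample_2269_KO (0.0592), Sample_2271_KO (0.0732), Sample_2275_WT (0.0633), Sample_2276_WT (0.0655) or Sample_2277_WT (0.0551). Its log2 fold change stayed between 1.20 and 1.66 over all 10 such fits, and DESeq2 gave 1.5 with an adjusted p of 0.205.

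Il13, whose product drives mucus secretion and airway reactivity, did not pass the test. Its only peak, at chr11:53627999-53628168, held 12, 13, 6, 16 and 16 counts in the KO libraries and 10, 17, 15, 10 and 13 counts in the WT libraries. The peak averaged 9.963 ± 2.52 CPM in KO libraries and 8.752 ± 0.66 CPM in WT libraries (SD, n = 4 each), with a fold of 1.09 (95% confidence interval 0.773 to 1.54; edgeR adjusted p = 0.903). The groups overlapped, and the highest value was that of Sample_2269_KO.

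Il5, the growth factor gene of eosinophils, had 3 intergenic peaks that likewise did not pass the test. Its summed accessibility was 34.9, 40.4, 25.4, 31.2 and 35.2 CPM in the KO libraries, against 37.4, 30.3, 31.3, 33.1 and 33 CPM in the WT libraries. The lowest library and the highest library were both KO ones, so the WT range lay inside the KO range. The fold of the Il5 sum was 1.04 (95% confidence interval 0.869 to 1.25; edgeR adjusted p = 0.92). Its single peaks, at chr11:53735670-53735866, chr11:53737078-53737284 and chr11:53737701-53737859, had folds of 1.06, 1.09 and 0.966 (adjusted p = 0.924, 0.89 and 0.97).

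Rad50 showed no call at its promoter and no peak over its 3′ part. The promoter peak over its start site, at chr11:53706879-53707517, stood at 45.6, 55.3, 56.7, 53.7 and 56.4 CPM in the KO libraries, against 46.7, 56.9, 56.4, 47.9 and 43.2 CPM in the WT libraries. It averaged 54.13 ± 2.28 CPM in KO libraries and 50.95 ± 6.77 CPM in WT libraries (SD, n = 4 each), with a fold of 1.05 (95% confidence interval 0.908 to 1.2; edgeR adjusted p = 0.871). The groups overlapped, with Sample_2268_KO apart from the other KO libraries. The second Rad50 peak, at chr11:53706736-53706806, held 2 to 9 counts in KO libraries and 3 to 9 in WT libraries and was too low to test. The sum of both peaks had a fold of 1.02 (0.89 to 1.18; adjusted p = 0.944), and its sign turned to below 0 without Sample_2272_KO or without Sample_2277_WT.

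Kif3a, the neighbour of Il4, was not called at either tested peak or in its sum, and the mean was lower in KO at 2 of its 3 peaks. The promoter peak over its start site, at chr11:53567217-53567645, stood at 32.8, 28.2, 23.3, 21.3 and 25.4 CPM in the KO libraries, against 28.2, 33.7, 32.4, 27.2 and 30.4 CPM in the WT libraries. Its fold was 0.839 (95% confidence interval 0.694 to 1.01; edgeR adjusted p = 0.449, unadjusted p = 0.0782), and the groups overlapped through Sample_2268_KO and Sample_2269_KO. The exonic peak at chr11:53590398-53590754, in exon 10 of 18, averaged 18.87 ± 2.78 CPM in KO libraries and 20.51 ± 2.21 CPM in WT libraries (SD, n = 4 each; fold 0.92, adjusted p = 0.846). The Kif3a promoter peak at chr11:53567734-53567823 held 2 to 10 counts in KO libraries and 3 to 9 in WT libraries and was too low to test. The Kif3a sum was 50.01 ± 2.17 CPM in KO libraries and 56.36 ± 3.4 CPM in WT libraries, a fold of 0.889 (0.774 to 1.02; adjusted p = 0.542).

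Of the 12 peaks, 7 had enough counts for the test, and 0 of these were called in either direction by edgeR, limma-voom or DESeq2, with 0 at an unadjusted p under 0.05 in edgeR. Among all 34910 tested peaks, 2.94% were called higher and 0.911% lower. The log2 fold change was above 0 in 4 of the 7 and below 0 in 3, with a median of 0.06 against -0.01 over all tested peaks. The 5 peaks too low to test included all 3 of Il4, so the tested peaks do not describe that gene. The 2 others gave log2 fold changes of 0.18 (Kif3a) and -0.32 (Rad50) with no filter, neither called (adjusted p = 0.922 and 0.831).

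**Figure D3:**
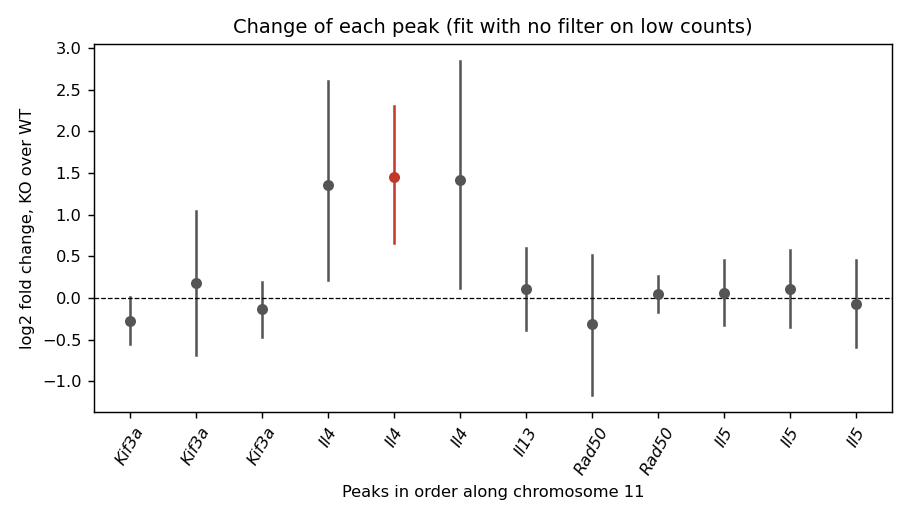
log2 fold change, KO over WT (y axis), of the 12 peaks in order along chromosome 11 (x axis), from the edgeR fit with no filter on low counts; points are fitted values and bars 95% confidence intervals, in red where the adjusted p in that fit is under 0.05. The 3 Il4 peaks stand at 1.36, 1.45 and 1.42, and the intervals of the 9 other peaks all include 0.

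The change of Il4 can be restated as a share of the locus counts, in which sequencing depth cancels. The share uses the same Il4 counts as the sum above and is not separate support. The 3 Il4 peaks took 11.7, 8.38, 5.15, 10.2 and 6.89% of the counts of the 12 peaks in the KO libraries, against 4.32, 4.42, 2.32, 3.72 and 1.79% in the WT libraries. Every KO share lay above every WT share, the nearest being Sample_2270_KO with 5 of 97 counts and Sample_2274_WT with 13 of 294. On a scale per kb of peak, Il4 had the lowest mean level of the 5 genes in both groups, at 44.7 CPM per kb in KO and 15.9 CPM per kb in WT. In KO libraries Il4 spanned 26.7 to 59.0 CPM per kb, which overlapped Kif3a (53.8 to 60.6), Il13 (48.1 to 81.2) and Il5 (45.1 to 71.8). In WT libraries Il4 spanned 8.68 to 23.5 CPM per kb, apart from the next gene, Il13 (42.4 to 64.7). The ranges of Kif3a, Il13 and Il5 overlapped each other in both groups. Rad50 had the highest mean level, 83.4 CPM per kb in KO and 80.2 CPM per kb in WT. Its range in KO libraries (69.7 to 95.4) overlapped those of Il13 and Il5. In WT libraries its range did not overlap that of the next gene, Kif3a (69.7 to 89.4 against 53.9 to 68.4).

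**Figure D4:**
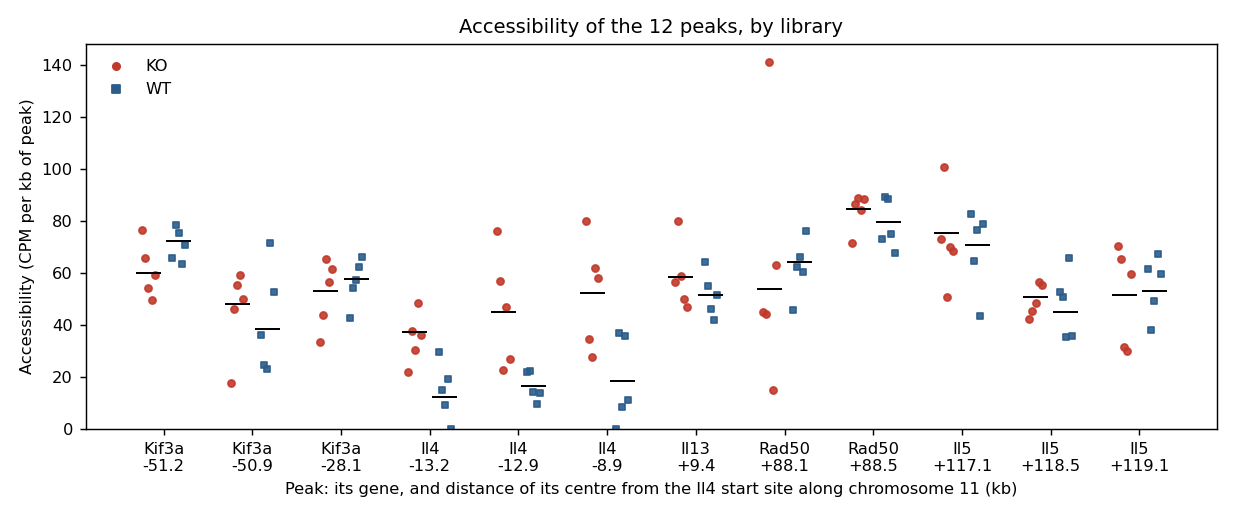
Accessibility per length (y axis, CPM per kb of peak) of the 12 peaks in order along chromosome 11 (x axis, gene name and distance in kb from the Il4 start site), in 5 KO libraries (red circles, left) and 5 WT libraries (blue squares, right), with lines at the means (n = 4). The 3 Il4 peaks have means of 37.2, 45.1 and 52.2 CPM per kb in KO and 12.3, 16.6 and 18.7 CPM per kb in WT, and the spread is wide for the short peaks of 60 to 170 bp.

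The neighbourhood of the locus was then examined. Within 500 kb of the outermost start sites, 59 peaks carried the symbol of 1 of 14 other genes, and 38 of them were tested. A further 23 peaks in this window carried no symbol and were left out here. Of the 38, 1 was called higher and 1 lower in KO, beside 2.94% higher and 0.911% lower over all tested peaks. The median log2 fold change of the 38 was -0.04. Within 200 kb, 0 of the 12 tested peaks with the symbol of another gene were called in either direction. Irf1, which encodes an interferon response factor and borders the locus beyond Il5, had 59.4 ± 7.61 CPM in KO libraries and 52.72 ± 6.09 CPM in WT libraries at its start site (SD, n = 4 each; fold 1.11, edgeR adjusted p = 0.591). The 8 tested start-site peaks had folds of 0.817 (Slc22a5, a carnitine transporter gene; adjusted p = 0.0704) to 1.16 (Slc22a4). Hspa4, Aff4, Zcchc10, Uqcrq and P4ha2 lay between, at 1.02, 1.01, 1.08, 0.932 and 0.944.

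An intronic peak of Zcchc10 at chr11:53330343-53330660 rose 1.53-fold, with 22.19 ± 1.34 CPM in KO libraries and 14.22 ± 3.44 CPM in WT libraries (SD, n = 4 each; edgeR adjusted p = 0.0247). Its call ended without Sample_2269_KO (adjusted p = 0.0509), Sample_2272_KO (0.0668), Sample_2273_WT (0.052), Sample_2275_WT (0.184) or Sample_2277_WT (0.0543), and with DESeq2 (0.409, at a log2 fold change of 0.617 against 0.61 in edgeR). An intergenic peak of Pdlim4 at chr11:54082724-54083059, 464.2 kb from the Il4 start site, fell to 17.17 ± 1.42 CPM in KO libraries, against 28.23 ± 1.9 CPM in WT libraries (SD, n = 4 each), a fold of 0.632 (adjusted p = 0.0025). That call remained when any library was left out, with adjusted p-values up to 0.0111, and ended with DESeq2 (0.107), whose log2 fold change was -0.69 against -0.66 in edgeR. A second flanking peak was called higher without Sample_2271_KO and a second lower without Sample_2268_KO, Sample_2270_KO, Sample_2273_WT, Sample_2274_WT or Sample_2275_WT.

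**Figure D5:**
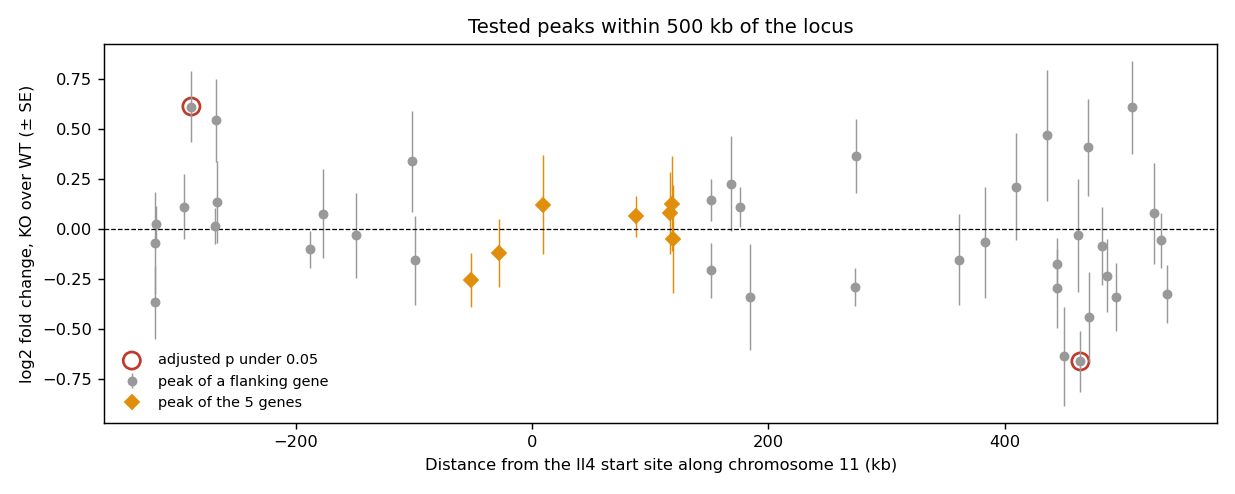
log2 fold change, KO over WT, with SE (y axis) of tested peaks with a gene symbol within 500 kb of the locus against distance in kb from the Il4 start site along chromosome 11 (x axis), for peaks of the 5 genes and for peaks of other genes. Red rings mark the peaks with an adjusted p under 0.05, the Zcchc10 peak (0.61) and the Pdlim4 peak (-0.66), and no tested peak of the 5 genes carries a ring; the Il4 peaks were too low to be among those tested.

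Genes that act on or beside the locus were taken from a list of 52 in 3 roles, of which 47 were tested. Of these 4 rose in KO (Gata3, Tyk2, Il7r and Il2), 0 fell and 43 did not pass the test, with 9 at an unadjusted p under 0.05 and a median log2 fold change of 0.03. Among all 12489 tested genes 1.65% were called higher and 0.536% lower, and 12.5% had an unadjusted p under 0.05. Among 21 transcription factors, Gata3, the master factor of Th2 cells, rose 1.18-fold, with 381.5 ± 31.1 CPM in KO libraries and 329.6 ± 22.9 CPM in WT libraries (SD, n = 4 each; edgeR adjusted p = 0.00696). Its groups overlapped, as Sample_2269_KO (338 CPM) lay below Sample_2274_WT (359 CPM). Maf, which activates Il4 in Th2 cells, had a fold of 1.14 (adjusted p = 0.0564), and Runx3, which represses Il4 in Th1 cells, 0.912 (0.293). Stat6, the factor downstream of the IL-4 receptor, had a fold of 1.02 (0.944).

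Among 18 receptor and signalling genes, Tyk2, a Janus kinase, rose 1.37-fold, with 113.5 ± 16.9 CPM in KO libraries and 83.92 ± 6.66 CPM in WT libraries (SD, n = 4 each; edgeR adjusted p = 0.000205). Il7r, the receptor chain for the naive T cell survival factor IL-7, rose 1.31-fold, with 394.1 ± 19.1 CPM in KO libraries and 304.2 ± 7.3 CPM in WT libraries (adjusted p = 1.03e-06). The IL-4 receptor gene Il4ra had 109.8 ± 11 CPM in KO libraries and 116.1 ± 17.1 CPM in WT libraries, with a fold of 0.971 (adjusted p = 0.91). Icos, a costimulatory receptor, and Socs5, an inhibitor of cytokine signalling, had folds of 1.09 (0.474) and 0.916 (0.582).

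Among 8 other cytokine genes, Il2, the T cell growth factor, rose 1.74-fold, with 134.6 ± 16.1 CPM in KO libraries and 78.68 ± 6.41 CPM in WT libraries (SD, n = 4 each; edgeR adjusted p = 8.8e-11). Ifng, the Th1 cytokine gene, had a fold of 1.18 (adjusted p = 0.0577), and all its KO libraries lay above its WT libraries. Il9, made by a further helper subset, had a fold of 0.91 (0.627). The fold of Il4 was larger than that of any of these, and the differences between genes were not tested.

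Markers of cells that the gate on CD3, CD4, CD25 and CD44 is set to remove were examined for what a sort can leave behind, and no tested one was called in either direction. Mast cells, basophils, eosinophils and type 2 innate lymphoid cells, which hold an open Il4 or Il13 locus, were judged by 4 genes with a peak, whose summed level was 30.9 to 52.2 CPM in KO libraries and 34.1 to 48.0 CPM in WT libraries. Of these, Il1rl1 was the only gene tested (fold 1.07, edgeR adjusted p = 0.894), and Mcpt8, Cpa3, Fcer1a, Ms4a2 and Prg2 were not analysed here. Activated and memory T cell markers summed to 601 to 698 CPM in KO libraries and 593 to 676 CPM in WT libraries, with 0 of 5 tested genes called. Follicular helper and NKT cell markers summed to 554 to 609 CPM in KO libraries and 538 to 604 CPM in WT libraries, with 0 of 4 called. CD8 T cell markers summed to 81.2 to 98.6 CPM in KO libraries and 71.3 to 90.8 CPM in WT libraries, and NK cell markers to 145 to 176 CPM in KO libraries and 134 to 158 CPM in WT libraries. B cell markers summed to 30.5 to 38.3 CPM in KO libraries and 35.6 to 41.8 CPM in WT libraries, and myeloid markers to 45.7 to 69.5 CPM in KO libraries and 53.3 to 66.9 CPM in WT libraries. Cd3e, a chain of the T cell receptor complex that marks the sorted cells, averaged 132.4 ± 6.7 CPM in KO libraries and 132.6 ± 8.3 CPM in WT libraries (SD, n = 4 each; fold 0.982, edgeR adjusted p = 0.941). It is 1 of a list of 10 naive CD4 T cell markers and does not stand for the others. That list also holds Il7r, which rose 1.31-fold as given above, and 0 of its genes were called lower. The part of any of these cells in the rise of Il4 was not tested.

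The genes whose pattern over the 10 libraries was nearest to that of Il4 were Il1r1, Gpr82, Olfr225, Mapk12 and Bicd1. Likeness was the root mean square difference of centred log2 CPM, which was 0.26, 0.293, 0.315, 0.324 and 0.373 for them, against a median of 0.74 over all genes. Because Il4 was higher in KO, genes picked for likeness over these same libraries had to be higher too, and their folds of 2.28, 2.65, 2.28, 1.77 and 1.71 are given as a description. Il1r1, an interleukin-1 receptor gene on chromosome 1, averaged 12.27 ± 2.7 CPM in KO libraries and 5.161 ± 1.98 CPM in WT libraries (SD, n = 4 each). Gpr82, an orphan receptor gene on chromosome X, averaged 12.65 ± 2.38 CPM in KO libraries and 4.819 ± 2.24 CPM in WT libraries. Both are weak in counts like Il4, with 122 counts each over all libraries. Olfr225 is the only gene of the 5 on chromosome 11, where the Th2 cytokine locus lies.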

How the data were processed

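ATAC-seq libraries from 60000 cells each were sequenced as single reads of 75 bp, per the labels' protocols. The authors deposited raw counts of reads, as whole numbers, for each peak and library. Per the submitters' processing notes, the tools were MACS2 2.1.2, ChIPseeker 1.18.0 and DESeq2 1.22.2 in R 3.5.3, with Bowtie2 2.3.5, Trimmomatic 0.36, bcl2fastq 2.20, deepTools 3.3.0 and 3.5.2, SAMtools 1.9 and Picard, and the build mm10. Shifting of reads to the cut site, the treatment of duplicates and any pooling for peak calling are not given in the sources used here. Removal of duplicates would lower strong peaks more than weak ones. The annotation, which leaves 7971 peaks without a symbol and does not list 10 mitochondrial ones, names the gene with the nearest start site, which does not show that the peak acts on it.

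Counts of all peaks, and sums of counts over peaks that share a symbol, were fitted with edgeR 4.0.16 under R 4.3.3. The model held the group alone, after filterByExpr and TMM, and was tested by glmQLFTest on a glmQLFit object. Adjustment was by Benjamini-Hochberg over all tested peaks or genes, with a threshold of 0.05. Folds are fitted values with a small prior count, and SE and 95% intervals come from the F statistic and the estimate without it, so they are approximate. Intervals and the 3-count limit for a 0 cover counting error or library spread only. The edgeR fit with its filter was tested on simulated data, with changes set only in peaks or genes of higher mean count than the single Il4 peaks. The fit with no filter on low counts was not tested in this way. DESeq2 1.42.0, limma-voom (limma 3.58.1), other scalings, filters, peak selections and libraries left out were alternatives. Promoter letters came from RefSeq GRCm38.p6, matched by symbol for 4 of the 5 genes (for Il4, of 2 entries, the entry at the annotated start site).

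Every peak of the 5 genes was accounted for. Named besides were called genes of the Th2 list with up to 2 more per role by adjusted p, with Stat6 and Il4ra added after their values were seen, called flanking peaks, start-site peaks of flanking genes, and the 5 genes most like Il4 over libraries. The members and lists were chosen with earlier results of these data known. A result on a marker of the sorted cells is not reported here.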

Additional observations from a re-analysis of the deposited data

Results flagged for a closer look

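The Rad50 promoter peak at 53706879 stood at 45.6 CPM in Sample_2268_KO, below the 53.7 to 56.7 CPM of the other KO libraries. Its gap to the nearest of them was 0.732 of the range of the KO group, above the 95% critical value of 0.71 of Dixon's test. With Sample_2268_KO and Sample_2270_KO averaged as 1 sample, as in the means, the 4 values ran from 51.1 to 56.4 CPM and the gap was 0.489 of the range, under the critical value for 4 samples. Of 34 sets of library values examined in this way, for the 12 peaks and 5 gene sums in each group, 1 was marked, and chance marks about 1 in 20.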

How the results depend on the processing

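No paired analysis was possible because the labels give running library numbers that the groups do not share. The rise of Il4 kept its direction and its call under all 20 alternatives that gave a value. Its log2 fold changes were 1.32 to 1.68 and its adjusted p-values 6.83e-05 to 0.00913. Not all of these could change the Il4 counts. Limits to peaks within 20 kb of the start site or outside promoters, and the count filters, kept all 3 Il4 peaks and altered only other genes. The lowest adjusted p, 6.83e-05, came from the edgeR fit of peaks outside promoters. Sums of only the peaks tested singly gave no value for Il4, which has none, so that 0 of the 5 genes were called higher instead of 1. Il5, Il13 and Kif3a kept their sign and were not called under any of 21 alternatives. The Rad50 log2 fold change, 0.03, turned to -0.01831 without the 3 shallowest libraries, and ranged from -0.009457 to 0.08986 with 1 library left out.

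With no filter on low counts, 1 peak of the 5 genes was called higher instead of 0. The same fit gave 0 to 1 with 1 library left out and 1 with the library pairs summed, both added after the data were seen. Flanking peaks called higher went to 0 instead of 1 with DESeq2, without the 3 shallowest libraries and in the 200 kb window, and to 0 to 2 with 1 library left out. Those called lower went to 0 with DESeq2 and in the 200 kb window, to 2 with limma-voom, with no filter, without the 3 shallowest libraries and with the pairs summed, and to 1 to 2 with 1 library left out. The Th2 list gave 4 to 5 higher and 0 lower throughout. Over all genes DESeq2 called 88 higher and 15 lower of 14287 tested, against 206 and 67 of 12489 by edgeR. Over all peaks DESeq2 called 478 and 41 of 52029 tested, against 1027 and 318 of 34910 by edgeR. Depth limits the Il4 peaks, which hold 9 to 45 counts per group, and single libraries 0 to 14.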
